A study of Mus musculus with 16 samples.

Results

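The genes described here encode the cytoskeletal proteins that give a heart cell its internal frame. They are the tubulins Tuba4a, Tubb2a, Tubb2b, Tubb5 and Tubb6, the cytoplasmic intermediate filament proteins Des, Vim and Nes, and the nuclear intermediate filament gene Lmna. Every non-control probe that bore the name of one of these 9 genes or a synonym was taken, which gave 9 of the 27670 gene names and 18 of the 41174 probes on the array. Of these, 17 were among the 14684 probes bright enough to be tested. The probe left out was a further probe of Vim (A_52_P287532), which was well above background on 0 of the 16 arrays. The probes were chosen by gene name, not by any measured value, but the genes were chosen with earlier results of these data known.

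Heart ventricles of 129Sv mice were compared in 4 groups of 4 biological replicates, with 1 array per replicate. The groups were CHIP(-/-) mice 1 week after trans-aortic banding (TAB), CHIP(-/-) mice 1 week after a sham operation, wild-type mice 1 week after TAB, and wild-type mice 1 week after sham. TAB narrows the aorta, so that the left ventricle has to pump against a higher pressure. CHIP, the product of Stub1, is a ubiquitin ligase that binds the chaperones Hsc70 and Hsp90, and CHIP(-/-) mice lack it in all cells. The ages and sexes of the mice are not given in the labels. On each array heart RNA was labelled with Cy5 and a reference RNA of whole neonatal mice, of mixed 129Sv and C57BL/6 strain, with Cy3. Levels are given as log2 ratios, heart over this reference, so a level below 0 means less signal in ventricle than in the whole neonate, and levels are compared between groups of mice but not between genes. Ventricular tissue holds several cell types, and fewer cells of a type and less RNA per cell cannot be told apart in it.

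Between 27.0% and 37.7% of an array's spots stood well above background with heart RNA. Stub1 had log2 ratios of -1.47 to -1.17 in CHIP(-/-) TAB and -1.39 to -1.24 in CHIP(-/-) sham hearts, against -0.41 to 0.25 in wild-type TAB and 0.30 to 0.43 in wild-type sham hearts. Each of the 4 slides held the 4 arrays of 1 group, and therefore no comparison here can tell slide from group: they cannot be told apart. Some sham arrays stood apart. Myl7, the atrial myosin light chain, had log2 ratios of 2.20 on CHIP(-/-) sham replicate 1 and of 3.82 and 1.89 on wild-type sham replicates 1 and 3, against -1.99 to 0.17 on the other 13 arrays. Y-linked transcripts (Ddx3y, Eif2s3y) rose well above background on 3 arrays, CHIP(-/-) sham replicates 2 and 4 and wild-type sham replicate 4, and on 0 TAB arrays. Results are therefore also given without the 3 arrays with high Myl7 and without the 3 arrays with Y-linked transcripts where these change a call.

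Microtubules are hollow polymers of tubulin dimers, each made of an alpha and a beta subunit, and the genes of both families differ in where they are used: Tuba4a is an alpha-tubulin abundant in striated muscle, while Tubb5 and Tubb6 are beta-tubulins of many cell types, and Tubb2a and Tubb2b are beta-tubulins best known from the nervous system. Intermediate filaments are rope-like polymers built by cell type. Des encodes desmin, the filament protein of muscle, which links neighbouring Z-discs to each other and to the intercalated disc. Vim encodes vimentin, the filament protein of fibroblasts, endothelium and other mesenchymal cells, and Nes encodes nestin, a filament protein of progenitor and growing cells that assembles together with other filament proteins. Lmna encodes lamins A and C, which form the meshwork under the nuclear envelope. Denser microtubules and desmin filaments are known features of heart muscle under pressure overload.

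Promoter windows of 7 of the 9 genes, all but Tubb2b and Tubb6, were used from the RefSeq promoter table. It gives 250 bases before and 50 bases from the start of a gene on build GRCm38.p6. The windows of Des, Vim and Tuba4a are shown because, among the 9 genes and with loess, Des had the largest difference in TAB response between genotypes, Vim the largest rise, and Tuba4a was the one that fell. The Des window is chr1:75360042-75360341 on the plus strand, the Vim window chr2:13574061-13574360 on the plus strand, and the Tuba4a window chr1:75219245-75219544 on the minus strand. Each is written from 5′ to 3′ along its gene, and capitals mark every match on either strand to a searched motif. The motifs were TATAAA for the TATA box, CCAAT for the site of that name, GGGCGG for the GC box, CANNTG for the E-box, and the CArG and MEF2 boxes by their usual consensus.
Des: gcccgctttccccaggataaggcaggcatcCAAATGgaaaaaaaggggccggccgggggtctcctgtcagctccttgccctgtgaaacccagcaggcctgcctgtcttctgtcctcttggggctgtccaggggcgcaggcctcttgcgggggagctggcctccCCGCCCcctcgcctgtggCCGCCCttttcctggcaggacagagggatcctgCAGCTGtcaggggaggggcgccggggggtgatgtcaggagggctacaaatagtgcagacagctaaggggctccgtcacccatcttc
Vim: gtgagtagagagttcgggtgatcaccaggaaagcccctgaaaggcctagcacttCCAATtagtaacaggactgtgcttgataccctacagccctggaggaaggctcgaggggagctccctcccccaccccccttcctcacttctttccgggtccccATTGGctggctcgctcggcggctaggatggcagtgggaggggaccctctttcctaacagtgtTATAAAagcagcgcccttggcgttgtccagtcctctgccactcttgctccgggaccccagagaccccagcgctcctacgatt
Tuba4a: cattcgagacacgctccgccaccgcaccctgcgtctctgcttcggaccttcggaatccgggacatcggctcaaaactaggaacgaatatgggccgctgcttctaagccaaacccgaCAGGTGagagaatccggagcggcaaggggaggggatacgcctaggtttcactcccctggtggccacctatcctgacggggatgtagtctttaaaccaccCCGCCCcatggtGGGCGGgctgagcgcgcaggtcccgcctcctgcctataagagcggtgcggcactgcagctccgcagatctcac
The Vim window held TATAAA from 32 to 27 bases before the start and 2 matches to CCAAT. The Des window held 2 matches to CANNTG and 2 to GGGCGG, and the Tuba4a window 1 match to CANNTG and 2 to GGGCGG. Over all 32851 promoters of this length, TATAAA was found in 13.6%, CCAAT in 37.4%, GGGCGG in 35.7% and CANNTG in 72.3%. CArG and MEF2 boxes were found in 1.6% and 3.2% of all promoters and in none of these 3 windows. A match describes the letters of a window and is not a binding site.

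Pressure overload was accompanied by higher transcripts of nearly all of these genes. With each gene represented by its brightest probe, 8 of the 9 genes rose and 1 fell after TAB in CHIP(-/-) hearts, where 44.0% of all tested probes passed the test (21.3% higher and 22.7% lower). In wild-type hearts 7 of the 9 rose and 0 fell, where 33.4% of all tested probes passed (16.3% higher and 17.1% lower). Over all 17 tested probes of these genes, 11 rose and 2 fell in wild type, and those 2 were the dimmer probes of Tuba4a. The words rise, fall and differ are kept for an adjusted p below 0.05 in limma's moderated test, with Benjamini-Hochberg adjustment over all 14684 probes. The TAB and sham arrays did not overlap for 9 of the 9 genes in CHIP(-/-), against 39.7% of all probes, and for 7 of the 9 in wild type, against 30.0% of all probes. The median difference over the 9 genes was 0.85 in CHIP(-/-) and 0.40 in wild type on the log2 scale, beside medians of -0.02 and -0.01 over all probes.

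These directions depend in part on how the arrays were scaled. With each array centred on its median in place of the loess curve, the median of all probes moved to -0.21 for TAB against sham in CHIP(-/-) and to -0.18 in wild type, and the share of higher among called probes moved to 11.4% and 7.88%, against 48.4% and 48.8% with loess. Relative to that shifted median, 8 of the 9 genes were still higher and 1 lower in CHIP(-/-), and 7 were higher and 2 lower in wild type. With median centring 5 genes rose (Vim, Des, Nes, Tubb2b and Tubb6) and 1 fell (Tuba4a) in CHIP(-/-), and 3 rose (Vim, Nes and Tubb6) and 1 fell (Tuba4a, by 0.63, adjusted p = 0.0019) in wild type. Taken as they stood, the wild-type differences of Des, Lmna, Tubb5 and the brightest Tubb2a probe and the CHIP(-/-) differences of Tubb5 were below 0 with median centring, and none of those passed the test.

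**Figure D1:**
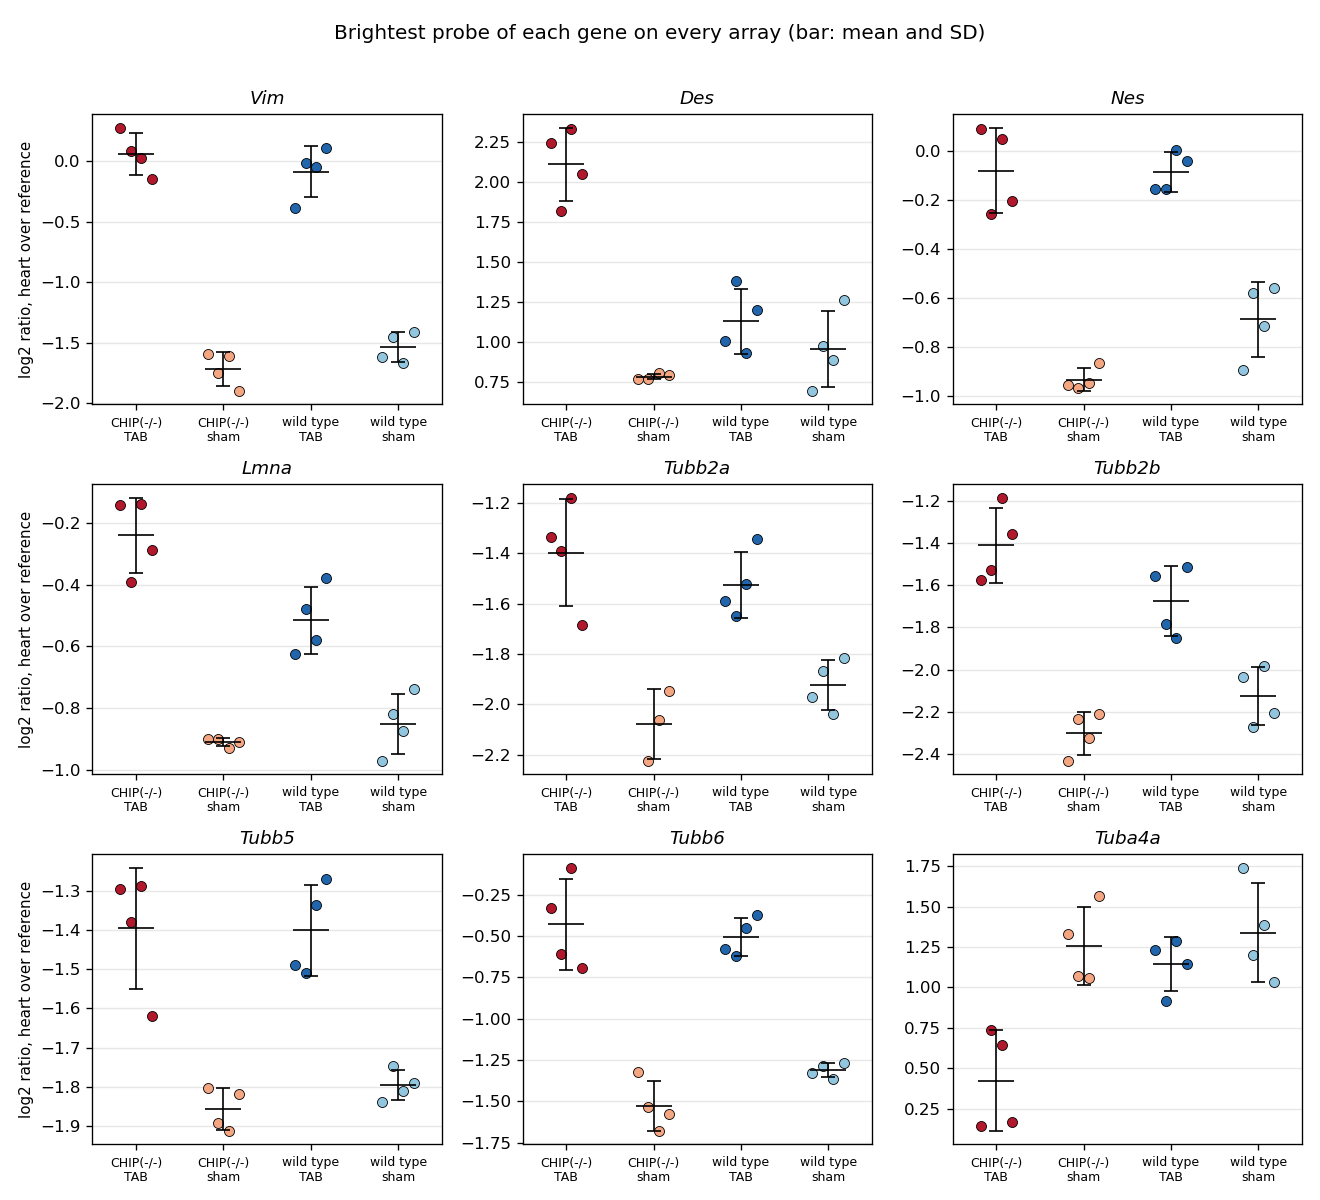
Log2 ratio of heart over reference (vertical axis) on each of the 16 arrays for the brightest probe of each gene, with the groups side by side. Points are single arrays, and the bars give the mean and SD of 4 arrays (3 for Tubb2a in CHIP(-/-) sham). All 4 CHIP(-/-) TAB arrays lie above all sham arrays for every gene but Tuba4a, where they lie below, and for Des the wild-type TAB and sham arrays overlap. With median centring in place of loess, the differences of Des, Lmna and Tubb2a in wild type and of Tubb5 in both genotypes change sign.

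Desmin rose after TAB in CHIP(-/-) hearts, and its difference in wild-type hearts did not pass the test. Its probe is spotted 10 times on each array, and the SD over those spots was 0.02 to 0.07. Des had log2 ratios of 2.24, 1.82, 2.33 and 2.05 in CHIP(-/-) TAB hearts and of 0.77, 0.77, 0.81 and 0.79 in CHIP(-/-) sham hearts. In wild type the values were 1.01, 1.38, 0.93 and 1.20 after TAB and 0.69, 0.97, 0.89 and 1.26 after sham. The 4 CHIP(-/-) TAB arrays stood clear above the other 12, while the wild-type TAB and sham arrays overlapped.

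Des was 2.50-fold higher after TAB in CHIP(-/-) hearts (1.32 on the log2 scale, SE 0.11, adjusted p = 1.2e-09). In wild type the difference was 0.17 (95% interval -0.05 to 0.40, adjusted p = 0.23). After TAB, CHIP(-/-) hearts had 1.97-fold more Des signal than wild-type hearts (0.98, SE 0.11, adjusted p = 6.5e-06), and after sham the difference was -0.17 (adjusted p = 0.79). The interaction, taken as the difference between TAB and sham in CHIP(-/-) less the same difference in wild type, was 1.15 (SE 0.15, adjusted p = 0.00029), and it passed under all 30 alternatives run, from 1.04 to 1.31 with adjusted p from 8.5e-05 to 0.0073. The wild-type difference passed only without wild-type sham replicate 4, whose value was the highest of its group (0.28, adjusted p = 0.047). It was 0.09 without wild-type sham replicate 1 and also without wild-type TAB replicate 2, 0.01 without the 3 arrays with high Myl7, and -0.19 with median centring.

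Vimentin rose in both genotypes, and with loess its rise was the largest of the 9 genes in each. With the processed signals the CHIP(-/-) rise of Tubb2b was larger (2.03, against 1.82 for Vim). Vim had log2 ratios of 0.27, 0.08, 0.03 and -0.15 in CHIP(-/-) TAB hearts and of -1.60, -1.75, -1.61 and -1.90 in CHIP(-/-) sham hearts. Wild-type hearts had -0.39, -0.02, -0.05 and 0.11 after TAB and -1.62, -1.45, -1.66 and -1.41 after sham. Every TAB array lay above every sham array by more than the spread within any group, and the genotypes overlapped within each operation.

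Vim was 3.42-fold higher after TAB in CHIP(-/-) (1.77, SE 0.097, adjusted p = 8.3e-12) and 2.73-fold higher in wild type (1.45, SE 0.097, adjusted p = 4.5e-10). The interaction was 0.32 with a 95% interval of 0.04 to 0.61, and it did not pass (adjusted p = 0.21). The CHIP(-/-) less wild-type difference was 0.15 after TAB (95% interval -0.05 to 0.35, adjusted p = 0.41) and -0.18 after sham (95% interval -0.38 to 0.02, adjusted p = 0.72). With median centring the rises were 1.23 and 1.03, both still past the test.

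Nestin followed with a smaller rise in both genotypes. Nes had log2 ratios of 0.09, -0.26, 0.05 and -0.20 in CHIP(-/-) TAB hearts and of -0.95, -0.97, -0.94 and -0.86 in CHIP(-/-) sham hearts. Wild-type hearts had -0.16, -0.16, 0.00 and -0.04 after TAB and -0.89, -0.58, -0.72 and -0.56 after sham. The TAB arrays of both genotypes lay together, and 3 of the 4 CHIP(-/-) sham arrays lay below all wild-type sham arrays.

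Nes rose by 0.85 in CHIP(-/-) (SE 0.082, adjusted p = 1.3e-08) and by 0.60 in wild type (SE 0.082, adjusted p = 5.9e-06), and both passed under all 30 alternatives, at 0.51 and 0.31 with median centring. The interaction of 0.25 did not pass (95% interval 0.01 to 0.49, adjusted p = 0.26). The CHIP(-/-) less wild-type difference after TAB was 0.01 (95% interval -0.16 to 0.18, adjusted p = 0.98). After sham the difference was -0.25 (95% interval -0.42 to -0.08), which did not pass after adjustment (adjusted p = 0.35). The 10 spots of the Nes probe had SDs of 0.06 to 0.12 within an array.

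The lamin A/C gene, measured by 3 probes, rose in both genotypes and more in CHIP(-/-). The brightest probe (A_51_P313566) had log2 ratios of -0.14, -0.39, -0.14 and -0.29 in CHIP(-/-) TAB hearts and of -0.90, -0.90, -0.93 and -0.91 in CHIP(-/-) sham hearts. Wild-type hearts had -0.62, -0.48, -0.58 and -0.38 after TAB and -0.97, -0.82, -0.88 and -0.74 after sham. The CHIP(-/-) TAB arrays were highest, with 1 value (replicate 2) just under the highest wild-type TAB value (replicate 4), and the sham arrays of both genotypes overlapped.

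Over its 3 probes, Lmna rose by 0.64 to 0.78 in CHIP(-/-) (adjusted p of 1.8e-07 or less for each) and by 0.28 to 0.34 in wild type. The wild-type adjusted p was 0.00039 for the brightest probe, 0.0018 for A_52_P137765 and 0.013 for A_51_P313561. With median centring the wild-type differences turned to -0.11, -0.10 and -0.06, and the CHIP(-/-) differences became 0.13, 0.18 and 0.35, with only that of A_51_P313561 still past the test (adjusted p = 0.039). Without the 3 arrays with high Myl7 the wild-type rise no longer passed for A_52_P137765 (0.22, adjusted p = 0.063) and A_51_P313561 (0.18, adjusted p = 0.27), and that of A_51_P313561 also did not pass without wild-type sham replicate 3 (0.25, adjusted p = 0.052) or with the processed signals or the series table (0.26 each, adjusted p = 0.053 and 0.054).

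After TAB, Lmna was higher in CHIP(-/-) than in wild type by 0.28 for the brightest probe (SE 0.067, adjusted p = 0.0085), by 0.27 for A_52_P137765 (SE 0.065, adjusted p = 0.0079) and by 0.36 for A_51_P313561 (SE 0.09, adjusted p = 0.011). Median centring ended all 3 calls, and the call of A_51_P313561 also ended without wild-type TAB replicate 1 or CHIP(-/-) TAB replicate 3 (0.30 each, adjusted p = 0.052 and 0.057). After sham the differences were -0.06 to -0.13 and did not pass. The interaction passed narrowly for all 3 probes, at 0.33 (adjusted p = 0.044), 0.36 (adjusted p = 0.024) and 0.49 (adjusted p = 0.029).

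The Lmna interaction calls depended on single arrays and on settings. That of the brightest probe passed under 11 of 30 alternatives. It ended when any 1 of 11 arrays was left out, namely every CHIP(-/-) sham array, CHIP(-/-) TAB replicates 1 and 3, wild-type TAB replicates 1 and 3, and wild-type sham replicates 2, 3 and 4 (0.30 to 0.34, adjusted p 0.062 to 0.11). That of A_52_P137765 ended in 6 such cases (0.31 to 0.35, adjusted p 0.051 to 0.067), for CHIP(-/-) TAB replicate 3, CHIP(-/-) sham replicates 2 and 3, wild-type TAB replicates 1 and 3 and wild-type sham replicate 4. That of A_51_P313561 ended in 7 (0.40 to 0.48, adjusted p 0.054 to 0.078), for CHIP(-/-) TAB replicates 1 and 3, CHIP(-/-) sham replicates 1 and 2, wild-type TAB replicates 1 and 3 and wild-type sham replicate 4. Without the 3 arrays with Y-linked transcripts none of the 3 probes passed (0.30, 0.32 and 0.42, adjusted p = 0.26, 0.19 and 0.13), and none passed with median centring or with no intensity trend. That of the brightest probe also ended with array position on the slide as a block (0.33, adjusted p = 0.073).

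**Figure D2:**
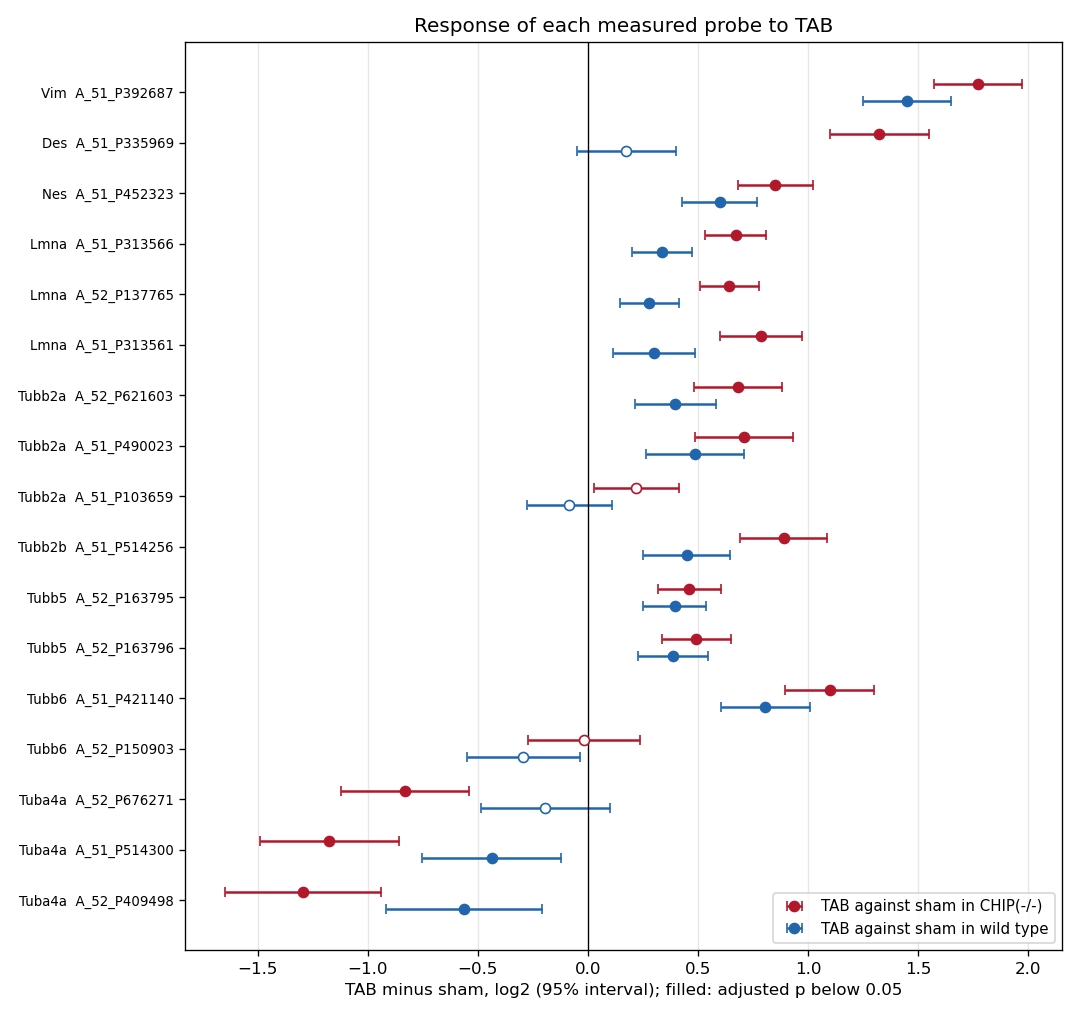
Difference between TAB and sham (horizontal axis, log2, with 95% intervals) for each of the 17 measured probes, CHIP(-/-) above wild type. Filled points passed the test at an adjusted p of 0.05. All 12 probes that rose in CHIP(-/-) lie between 0.46 and 1.77, and Des is the one whose wild-type interval reaches below 0 while its CHIP(-/-) interval starts at 1.10. With median centring in place of loess, the wild-type points of Des, Lmna, Tubb5 and the upper Tubb2a probe and the CHIP(-/-) points of Tubb5 lie below 0. The points of the Tubb6 probe A_52_P150903, which had groups with no array well above background, measure no difference.

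Among the beta-tubulin probes that rose, that of Tubb6 had the largest differences with loess, whereas with the processed signals Tubb2b was above Tubb6 in CHIP(-/-) (2.03 and 1.17) and in wild type (0.83 and 0.79). Tubb6 (A_51_P421140) had log2 ratios of -0.33, -0.61, -0.09 and -0.70 in CHIP(-/-) TAB hearts and of -1.32, -1.53, -1.68 and -1.58 in CHIP(-/-) sham hearts. Wild-type hearts had -0.58, -0.62, -0.45 and -0.37 after TAB and -1.33, -1.29, -1.37 and -1.27 after sham. TAB and sham arrays were well apart in both genotypes, and the CHIP(-/-) TAB arrays spread over the range of the wild-type TAB arrays.

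Tubb6 rose 2.14-fold in CHIP(-/-) (1.10, SE 0.098, adjusted p = 4.1e-09) and 1.75-fold in wild type (0.81, SE 0.098, adjusted p = 1.3e-06), and both passed under all 30 alternatives, at 0.69 and 0.47 with median centring. The interaction was 0.29 (95% interval 0.01 to 0.58, adjusted p = 0.28). The further Tubb6 probe (A_52_P150903), whose listed transcript is another one, was well above background on 1 of 4 CHIP(-/-) TAB arrays, 0 of 4 CHIP(-/-) sham arrays, 0 of 4 wild-type TAB arrays and 3 of 4 wild-type sham arrays. Its log2 ratios were 0.15 to 0.38, 0.12 to 0.38, -0.10 to 0.46 and 0.24 to 0.78 in those groups. For the groups with no array well above background these ratios are only bounds, so no fold is given. Calls of this probe that changed with the setting or the arrays used are left out for the same reason.

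Tubb2a was measured by 3 probes, of which the brighter pair rose together. The brightest (A_52_P621603) had log2 ratios of -1.68 to -1.18 in CHIP(-/-) TAB hearts, -2.23 to -1.95 in CHIP(-/-) sham hearts, -1.65 to -1.34 in wild-type TAB hearts and -2.04 to -1.82 in wild-type sham hearts. CHIP(-/-) sham replicate 1 had no value, since its spot was marked as an outlier, so that group had 3 arrays in the fit. The TAB arrays of either genotype did not overlap with their sham arrays.

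This Tubb2a probe rose by 0.68 in CHIP(-/-) (SE 0.096, adjusted p = 4.5e-06) and by 0.40 in wild type (SE 0.089, adjusted p = 0.0014). With median centring they were 0.11 and -0.04, and neither passed. The second probe, A_51_P490023, rose by 0.71 (adjusted p = 9.1e-06) in CHIP(-/-) and by 0.49 (adjusted p = 0.0011) in wild type, and its wild-type rise no longer passed without the 3 arrays with high Myl7 (0.35, adjusted p = 0.06) or with median centring (0.07, adjusted p = 0.73), nor its CHIP(-/-) rise with median centring (0.21, adjusted p = 0.25). The dimmest probe, A_51_P103659, was well above background on 7 of 16 arrays. These were 4 of 4 wild-type sham arrays but only 1 of 4 in each other group. Its values in both CHIP(-/-) groups and in wild-type TAB therefore lie near background, which limits its differences and its interaction. Its differences of 0.22 in CHIP(-/-) (adjusted p = 0.06) and -0.08 in wild type (adjusted p = 0.53) did not pass. That CHIP(-/-) difference passed without CHIP(-/-) TAB replicate 1, CHIP(-/-) sham replicate 2 or wild-type sham replicate 1 (0.22 to 0.29, adjusted p 0.023 to 0.049). The interactions of the 3 probes were 0.28, 0.22 and 0.30, and none passed (adjusted p 0.23 to 0.51).

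Tubb2b, the gene next to Tubb2a in the RefSeq gene order, had log2 ratios of -1.57, -1.53, -1.19 and -1.36 in CHIP(-/-) TAB hearts and of -2.43, -2.24, -2.33 and -2.21 in CHIP(-/-) sham hearts. Wild-type hearts had -1.56, -1.78, -1.85 and -1.52 after TAB and -2.04, -2.27, -1.99 and -2.21 after sham. It was dim, with 4 of 4 CHIP(-/-) TAB, 2 of 4 CHIP(-/-) sham, 3 of 4 wild-type TAB and 3 of 4 wild-type sham arrays well above background, and the TAB and sham arrays did not overlap in either genotype.

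Tubb2b rose by 0.89 in CHIP(-/-) (SE 0.096, adjusted p = 6.7e-08; 0.57 with median centring) and by 0.45 in wild type (SE 0.096, adjusted p = 0.00084). The wild-type rise did not pass with median centring (0.22, adjusted p = 0.14) or, at a larger value of 0.83, with the processed signals or the table of the series, where the CHIP(-/-) rise was 2.03. The interaction of 0.44 (95% interval 0.16 to 0.72) missed the threshold with adjusted p = 0.064, and passed without CHIP(-/-) TAB replicate 2 or wild-type TAB replicate 4 (0.48 to 0.50, adjusted p 0.036 to 0.043) and with array weights (0.47, adjusted p = 0.043). The CHIP(-/-) less wild-type difference of Tubb2b after TAB was 0.26 (adjusted p = 0.085), and it passed without wild-type TAB replicate 4 (0.32, adjusted p = 0.045). Whether probes of Tubb2a, Tubb2b and Tubb5, whose products are close relatives, also bind each other's transcripts was not tested here.

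With loess Tubb5 had the smallest interaction of the 9 genes. Its brightest probe (A_52_P163795) had log2 ratios of -1.62 to -1.29 in CHIP(-/-) TAB hearts, -1.91 to -1.80 in CHIP(-/-) sham hearts, -1.51 to -1.27 in wild-type TAB hearts and -1.84 to -1.75 in wild-type sham hearts. It rose by 0.46 in CHIP(-/-) (SE 0.069, adjusted p = 8.1e-06) and by 0.39 in wild type (SE 0.069, adjusted p = 1e-04), and the other probe (A_52_P163796) by 0.49 and 0.39. With median centring these 4 differences turned to between -0.07 and -0.01 and did not pass, while each stayed above the shifted median of all probes by 0.14 to 0.19. The interactions were 0.07 (95% interval -0.14 to 0.27, adjusted p = 0.81) and 0.11 (95% interval -0.12 to 0.33, adjusted p = 0.69).

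Tuba4a, listed on the array under its older name Tuba4, went the opposite way. Its brightest probe (A_52_P676271) had log2 ratios of 0.14, 0.74, 0.65 and 0.17 in CHIP(-/-) TAB hearts and of 1.33, 1.07, 1.06 and 1.56 in CHIP(-/-) sham hearts. Wild-type hearts had 1.23, 0.91, 1.29 and 1.14 after TAB and 1.74, 1.20, 1.38 and 1.03 after sham. All 4 CHIP(-/-) TAB arrays lay below the other 12, and CHIP(-/-) TAB replicates 1 and 4 were the lowest. The highest value was that of wild-type sham replicate 1, which also had the highest Myl7.

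In CHIP(-/-) hearts Tuba4a fell by 0.83 with the brightest probe (SE 0.14, adjusted p = 3.9e-05), to 0.562-fold of the sham level, and the other 2 probes fell by 1.17 (A_51_P514300, adjusted p = 1.2e-06) and 1.29 (A_52_P409498, adjusted p = 1.4e-06). In wild type the difference of the brightest probe was -0.19 (95% interval -0.49 to 0.10, adjusted p = 0.31), whereas A_51_P514300 fell by 0.44 (adjusted p = 0.03) and A_52_P409498 by 0.56 (adjusted p = 0.013). The call of A_52_P409498 ended without wild-type sham replicate 1 (-0.42, adjusted p = 0.068). That of A_51_P514300 ended without wild-type sham replicate 1 or 3 or wild-type TAB replicate 2 or 4 (-0.41 to -0.31, adjusted p 0.074 to 0.14), with the processed signals (-0.42, adjusted p = 0.088) or the series table (-0.42, adjusted p = 0.091), and with no intensity trend (-0.44, adjusted p = 0.051). Without the 3 arrays with high Myl7 the wild-type differences were 0.03, -0.20 and -0.31, and none passed. With median centring all 3 probes fell in wild type, by 0.63, 0.75 and 0.80, and in CHIP(-/-), by 1.37, 1.52 and 1.52.

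After TAB, Tuba4a was lower in CHIP(-/-) than in wild type with each probe, by -0.72 (SE 0.14, adjusted p = 0.0015), -0.77 (adjusted p = 0.0017) and -0.80 (adjusted p = 0.0032), and these calls held under all alternatives run. After sham the differences were -0.08, -0.04 and -0.07 and did not pass (adjusted p of 0.95 or more). The interactions were -0.64, -0.74 and -0.73, and all missed the threshold (adjusted p = 0.071, 0.052 and 0.09). That of the brightest probe passed without CHIP(-/-) TAB replicate 2, wild-type TAB replicate 2 or wild-type sham replicate 1 (-0.77 to -0.72, adjusted p 0.018 to 0.046). Those of the other 2 passed in 5 and 2 such cases, both including CHIP(-/-) TAB replicate 2 and wild-type sham replicate 1, and for A_51_P514300 also CHIP(-/-) sham replicate 2 and wild-type TAB replicates 2 and 4. Without the 3 arrays with high Myl7 all 3 passed (-0.84, -0.97 and -1.05, adjusted p = 0.03, 0.024 and 0.027), and without the 3 arrays with Y-linked transcripts that of the brightest was -0.47 (adjusted p = 0.36). With array position on the slide as a block, an alternative chosen after seeing the data, those of the brightest probe (-0.64, adjusted p = 0.038) and A_51_P514300 (-0.74, adjusted p = 0.042) passed, as they did with array weights (-0.66 and -0.76, adjusted p = 0.048 and 0.038). Over all alternatives run, the interaction of the brightest probe passed under 6 of 30, that of A_51_P514300 under 9 of 29 and that of A_52_P409498 under 3 of 29.

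Between genotypes after sham, 0 of the 9 genes differed by limma's test, where 0.0341% of all tested probes did (0.0136% higher and 0.0204% lower in CHIP(-/-), with 5.09% not overlapping). At an unadjusted p below 0.05, 2 genes were lower in CHIP(-/-), Nes and Tubb6 (-0.22), and none of the 9 passed under any alternative run. The median difference over the 9 genes after sham was -0.17, beside -0.01 over all probes. With median centring, 9 of the 9 genes lay below the median of all probes after sham and 0 above it. After TAB, Des and Lmna were higher and Tuba4a lower in CHIP(-/-) than in wild type, 3 of 9 genes, where 9.91% of all probes passed (4.43% higher and 5.48% lower). The CHIP(-/-) and wild-type TAB arrays did not overlap for 2 of the 9 genes, Des and Tuba4a, against 11.9% of all probes. The interaction passed for 2 of the 9 genes, Des and Lmna, where it passed for 4.37% of all probes (2.32% higher and 2.05% lower). In limma's test its unadjusted p was below 0.05 for 8 of the 9 genes, all but Tubb5. Of these 8, 1 was downwards (Tuba4a). The share of all probes below that unadjusted p is not given here. TAB against sham in CHIP(-/-) and CHIP(-/-) against wild type after TAB share the CHIP(-/-) TAB arrays, so these counts are not independent of each other.

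For Vim, Nes, Tubb2a, Tubb2b, Tubb5 and Tubb6 the TAB groups of both genotypes were highest with a difference between them that did not pass the test, and the sham groups were lowest, likewise with no difference past the test. For Lmna the order was CHIP(-/-) TAB, wild-type TAB, then both sham groups, whose difference did not pass. For Des CHIP(-/-) TAB stood alone at the top, above the other 3 groups, and no difference between neighbours among those 3 passed. For Tuba4a CHIP(-/-) TAB stood alone at the bottom.

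Among the CHIP(-/-) TAB arrays, replicate 3 had the highest value for 6 of the 9 genes and replicate 4 the lowest for 4. Among the wild-type TAB arrays replicate 4 was highest for 6 genes, and among the wild-type sham arrays replicate 4, which had Y-linked transcripts, was highest for 6.

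The genes whose pattern over the 16 arrays was nearest to a member were found by the root mean square difference of log2 ratios, each centred on its own mean, among 9961 genes, for the 3 members that rose by at least 1 in CHIP(-/-). For Vim they were Emp1 (0.114), Uck2 (0.168) and Hmgb2 (0.173). For Des they were Rtn4 (0.128), Col1a2 (0.145), which encodes a chain of type I collagen, and Adam9 (0.159). The TAB less sham difference of Col1a2 was 1.39 in CHIP(-/-) and 0.33 in wild type, and that of Rtn4 was 1.28 and 0.35, next to 1.32 and 0.17 for Des. For Tubb6 they were the alpha-tubulin gene Tuba1a (0.104), Lrrc58 (0.105) and the beta-actin gene Actb (0.116). Among the members themselves Tubb2a and Tubb5 were the closest pair (0.0996). These likenesses are descriptions over 15 or 16 arrays, which share their groups and slides.

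Tuba4a and Des lie near each other on the same chromosome, with 5 listed genes between them in the RefSeq gene order, and moved in opposite directions in CHIP(-/-). Of those between, Dnajb2 and Dnpep were measured, and with TAB they differed by -0.30 (adjusted p = 0.001) and -0.21 (adjusted p = 0.0059) in CHIP(-/-) and by -0.26 (adjusted p = 0.0045) and -0.23 (adjusted p = 0.0044) in wild type. Speg, on the far side of Des, encodes a kinase of striated muscle and differed by -0.65 (adjusted p = 2.6e-07) in CHIP(-/-) and -0.47 (adjusted p = 3.9e-05) in wild type. Among the measured genes from Tuba4a to Speg, Des alone rose in CHIP(-/-).

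The other genes of the tubulin and filament systems were taken in 6 lists, of which 80 genes were measured. In CHIP(-/-) 23 rose and 14 fell after TAB, and in wild type 17 rose and 10 fell. After sham 0 differed between genotypes (7 at an unadjusted p below 0.05, 6 of them lower in CHIP(-/-)), and after TAB 5 were higher and 7 lower in CHIP(-/-), where 9.91% of all probes passed. The interaction passed for 4, Krt18 and Dynll1 upwards and Lmo7 and Ttll1 downwards, where it passed for 4.37% of all probes. Among all probes 21.3% rose and 22.7% fell in CHIP(-/-), and 16.3% rose and 17.1% fell in wild type. These shares also belong beside the counts of each single list below, some of which lie near them. By list, the median differences of the lists with TAB lay between -0.11 and 0.41 in CHIP(-/-) and between -0.10 and 0.21 in wild type. All values and calls of these lists are with loess. With median centring the share of higher among all called probes was 11.4% in CHIP(-/-) and 7.88% in wild type. Which calls of these lists would hold with median centring is not given here.

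Of 10 measured further tubulins, 3 rose and 1 fell in CHIP(-/-), and 3 rose and 0 fell in wild type. The alpha-tubulin genes Tuba1a and Tuba1c rose by 1.21 and 1.17 in CHIP(-/-) (adjusted p = 4.8e-10 each) and by 0.90 (adjusted p = 1.4e-07) and 1.02 (adjusted p = 1.8e-08) in wild type. Tuba8, an alpha-tubulin of heart and skeletal muscle, fell by 0.57 in CHIP(-/-) (adjusted p = 0.008), and after TAB it was lower in CHIP(-/-) than in wild type (-0.95, SE 0.17, adjusted p = 0.00067). The CHIP(-/-) TAB and sham arrays of Tuba8 overlapped, with mean log2 ratios of 1.47 and 2.05, and its wild-type TAB mean was 2.42. The interaction passed for 0 of the 10 further tubulins. Tuba3a rose by 0.30 in CHIP(-/-) (adjusted p = 0.0063) and the beta-tubulin gene Tubb4a by 0.33 in wild type (adjusted p = 0.0013). Whether these probes also bind the transcripts of other alpha-tubulin genes was not tested.

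Of 19 measured genes for tubulin folding, 7 rose and 2 fell in CHIP(-/-), and 6 rose and 1 fell in wild type. Tbca, a tubulin-folding cofactor that binds beta-tubulin, rose by 0.56 in CHIP(-/-) (adjusted p = 1.8e-08) and by 0.50 in wild type (adjusted p = 2.8e-07). Pfdn5, a subunit of the prefoldin chaperone, rose by 0.35 and 0.43, and Tbcc, another folding cofactor, by 0.31 and 0.39, while the prefoldin subunit Pfdn6 fell by 0.39 in CHIP(-/-) (adjusted p = 5.4e-05). Tcp1, a subunit of the chaperonin that folds actin and tubulin, fell by 0.25 in wild type (adjusted p = 0.0097). After TAB the cofactor Tbcd was higher in CHIP(-/-) than in wild type by 0.32 (adjusted p = 0.0048) and Pfdn6 lower (-0.23, adjusted p = 0.03).

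Of 10 measured genes that modify tubulin or control its synthesis, 3 rose and 2 fell in CHIP(-/-), and 1 rose and 3 fell in wild type. Ttll1, a catalytic subunit of a tubulin polyglutamylase, fell by 1.25 in CHIP(-/-) (adjusted p = 1.6e-09) and by 0.68 in wild type (adjusted p = 2.5e-05), and its interaction passed (-0.57, SE 0.15, adjusted p = 0.028). Agtpbp1, which shortens glutamate side chains of tubulin, fell by 0.84 (adjusted p = 2.2e-08) and 0.51 (adjusted p = 4.7e-05). Svbp, the partner of the vasohibins that remove the last tyrosine of alpha-tubulin, rose by 0.52 (adjusted p = 1.4e-07) and 0.46 (adjusted p = 1.9e-06). Ttll12 rose by 0.35 in CHIP(-/-), and the tubulin deacetylase gene Hdac6 fell by 0.27 in wild type and was higher in CHIP(-/-) than in wild type after TAB (0.29, adjusted p = 0.013).

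Of 18 measured genes for microtubule-associated proteins and motors, 5 rose and 4 fell in CHIP(-/-), and 4 rose and 2 fell in wild type. Dynll1, a light chain of dynein, rose by 1.79 in CHIP(-/-) (adjusted p = 3.3e-12) and by 1.08 in wild type (adjusted p = 9.9e-09), and its interaction passed (0.71, SE 0.13, adjusted p = 0.0027). Stmn1, which takes up tubulin dimers, rose by 0.66 and 0.57. The plus-end protein gene Mapre1 rose by 0.50 and 0.30. Clasp1, another plus-end protein, fell by 0.55 and 0.78, and Dctn1, a dynactin subunit, fell by 0.25 and 0.39. After TAB Dynll1 was higher in CHIP(-/-) than in wild type by 0.43 (adjusted p = 0.003), and Mapt, which encodes tau, was lower (-0.24, adjusted p = 0.029).

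Of 15 further intermediate filament genes 6 were measured, of which 4 rose in CHIP(-/-) and 3 in wild type, and 0 fell in either (at an unadjusted p below 0.05 also 0). Krt18, a keratin of simple epithelia, rose by 1.45 in CHIP(-/-) (adjusted p = 6.1e-08) and by 0.56 in wild type (adjusted p = 0.0069), with an interaction of 0.89 (SE 0.22, adjusted p = 0.02), and Krt8, its usual partner, rose by 0.24 in CHIP(-/-) (adjusted p = 0.048). Lmnb1, which encodes lamin B1, rose by 0.81 and 0.71, and Synm, which encodes the desmin-binding protein synemin, by 0.59 and 0.34.

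All 17 genes for partners of the lamina and the filaments were measured, of which 1 rose and 5 fell in CHIP(-/-) and 0 rose and 4 fell in wild type. Lmo7 fell by 0.91 in CHIP(-/-) (adjusted p = 6e-10) and by 0.42 in wild type (adjusted p = 7.3e-05), and its interaction passed (-0.49, SE 0.10, adjusted p = 0.007). Dsp, which encodes the desmosomal anchor of desmin, fell by 0.24 in CHIP(-/-) (adjusted p = 0.0095) and by 0.52 in wild type (adjusted p = 7.9e-06), and was higher in CHIP(-/-) than in wild type after TAB (0.24, adjusted p = 0.04). Sun1 and Syne2, of the bridge between lamina and cytoskeleton, fell by 0.38 and 0.34 in CHIP(-/-). Ppl fell by 0.31 (adjusted p = 0.039), with a dim probe that was well above background on only 7 of 16 arrays. Syne2 and Dst fell by 0.24 and 0.25 in wild type.

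**Figure D3:**
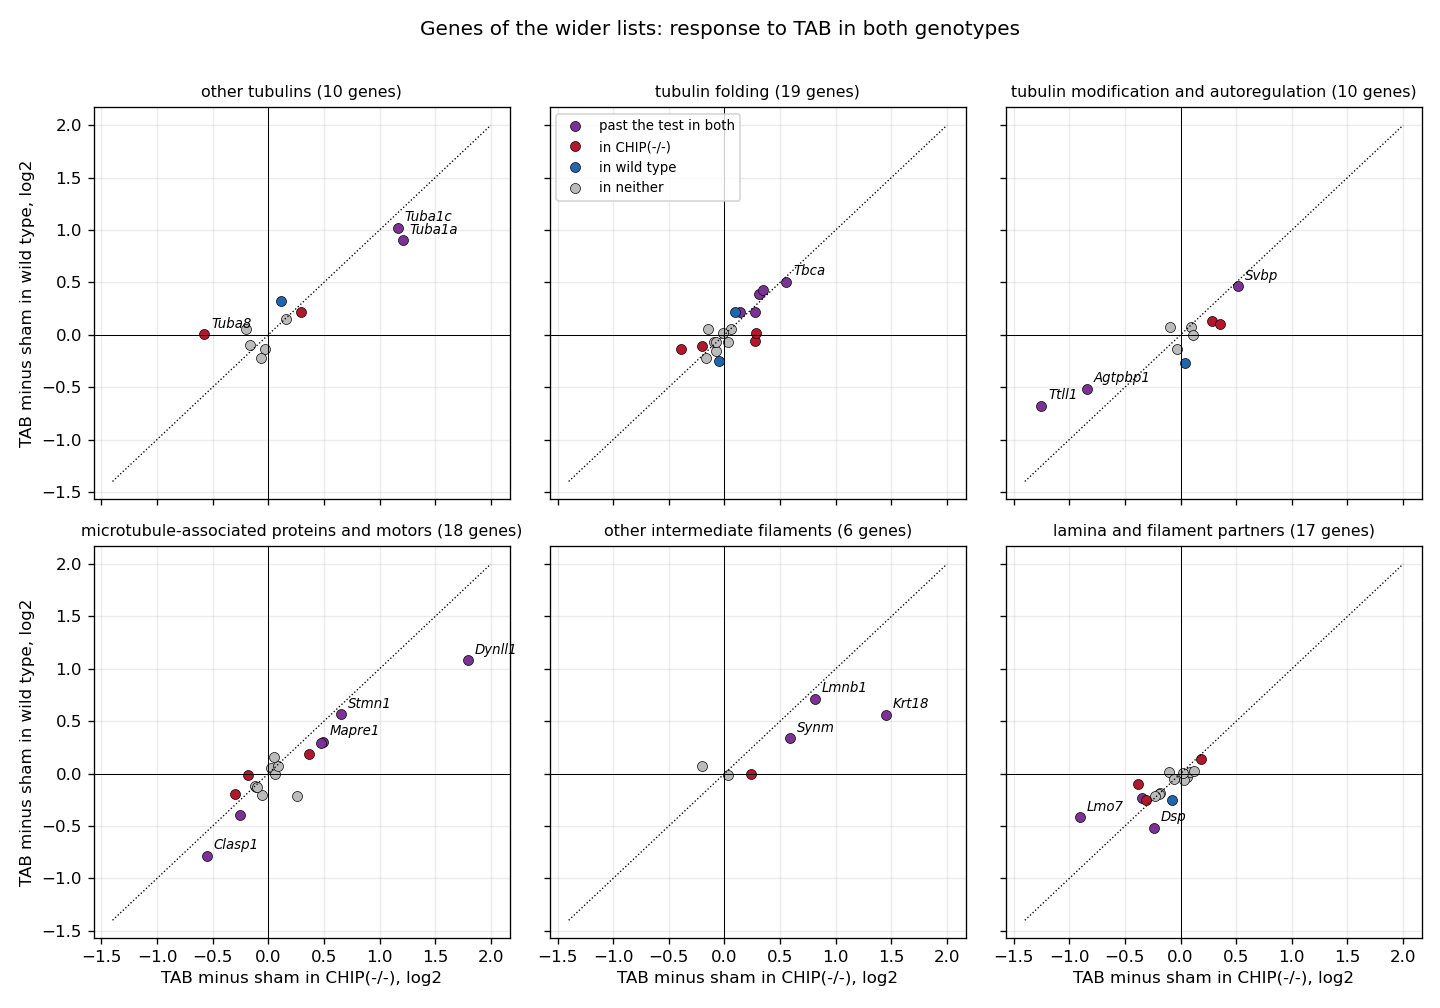
Difference between TAB and sham on the log2 scale in CHIP(-/-) (horizontal axis) and in wild type (vertical axis) for each measured gene of the 6 lists, by its brightest probe. Colours show in which genotype the gene passed the test, and the dotted line marks equal differences. Tuba1a, Tuba1c, Dynll1, Lmnb1 and Krt18 lie farthest to the upper right and Ttll1, Agtpbp1, Lmo7 and Clasp1 to the lower left. Values are with loess. With median centring the median of all probes lies at -0.21 on the horizontal and -0.18 on the vertical axis.

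Markers of other cell types in the ventricle also moved with TAB. The mean log2 ratio over 10 fibroblast markers was -0.43 to -0.18 in CHIP(-/-) TAB hearts and -1.88 to -1.49 in CHIP(-/-) sham hearts, and -1.20 to -0.64 in wild-type TAB hearts and -1.64 to -1.21 in wild-type sham hearts. In each genotype 7 of 10 rose with TAB and 0 fell, and the interaction passed upwards for 5. Over all probes, 21.3% rose and 22.7% fell in CHIP(-/-), 16.3% rose and 17.1% fell in wild type, and the interaction passed upwards for 2.32%. The same shares belong beside the counts of the marker lists that follow. All marker values and counts are with loess. The part of fibroblasts in the rises of Vim, Des and the tubulins was not tested.

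The 10 macrophage markers averaged 0.44 to 0.64 in CHIP(-/-) TAB and -0.22 to -0.13 in CHIP(-/-) sham hearts, and 0.22 to 0.34 in wild-type TAB and -0.09 to -0.04 in wild-type sham hearts. Of these 9 rose in CHIP(-/-) and 7 in wild type, and the interaction passed upwards for 4. The 6 measured markers of dividing cells, out of 10 listed (Top2a, Ccnb1, Aurkb and Bub1 were not measured), rose in both genotypes, with averages of -1.12 to -0.71 in CHIP(-/-) TAB and -2.12 to -1.98 in CHIP(-/-) sham hearts, and -1.09 to -0.59 in wild-type TAB and -2.22 to -1.71 in wild-type sham hearts. The part of macrophages and dividing cells in the members' rises was not tested.

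The 10 endothelial markers averaged 0.80 to 0.95 in CHIP(-/-) TAB and 0.68 to 0.80 in CHIP(-/-) sham hearts, and 0.88 to 1.19 in wild-type TAB and 0.68 to 0.82 in wild-type sham hearts, with 5 higher and 2 lower in CHIP(-/-) and 7 higher and 1 lower in wild type. The 10 markers of smooth muscle and pericytes averaged -0.23 to 0.02, -0.80 to -0.72, -0.26 to -0.05 and -0.81 to -0.57 in the same order of groups, with 7 higher and 1 lower in CHIP(-/-) and 9 higher and 1 lower in wild type. Of 8 measured cardiomyocyte markers (Myl2 and Mybpc3 were not measured), 1 rose and 7 fell in CHIP(-/-) and 0 rose and 5 fell in wild type. Their average was 3.27 to 3.47 in CHIP(-/-) TAB and 3.34 to 4.00 in CHIP(-/-) sham hearts, and 3.52 to 3.79 in wild-type TAB and 3.95 to 4.12 in wild-type sham hearts.

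Of the remaining lists, the 3 measured of 9 nerve and glia markers rose in both genotypes, with averages of -1.01 to -0.83, -1.70 to -1.59, -1.38 to -1.09 and -1.75 to -1.54 in the same order. Of 7 measured skeletal muscle markers 1 rose and 2 fell in each genotype. Of 3 measured atrial markers 0 passed in either genotype, and of 8 lymphocyte markers 0 were bright enough to be measured.

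**Figure D4:**
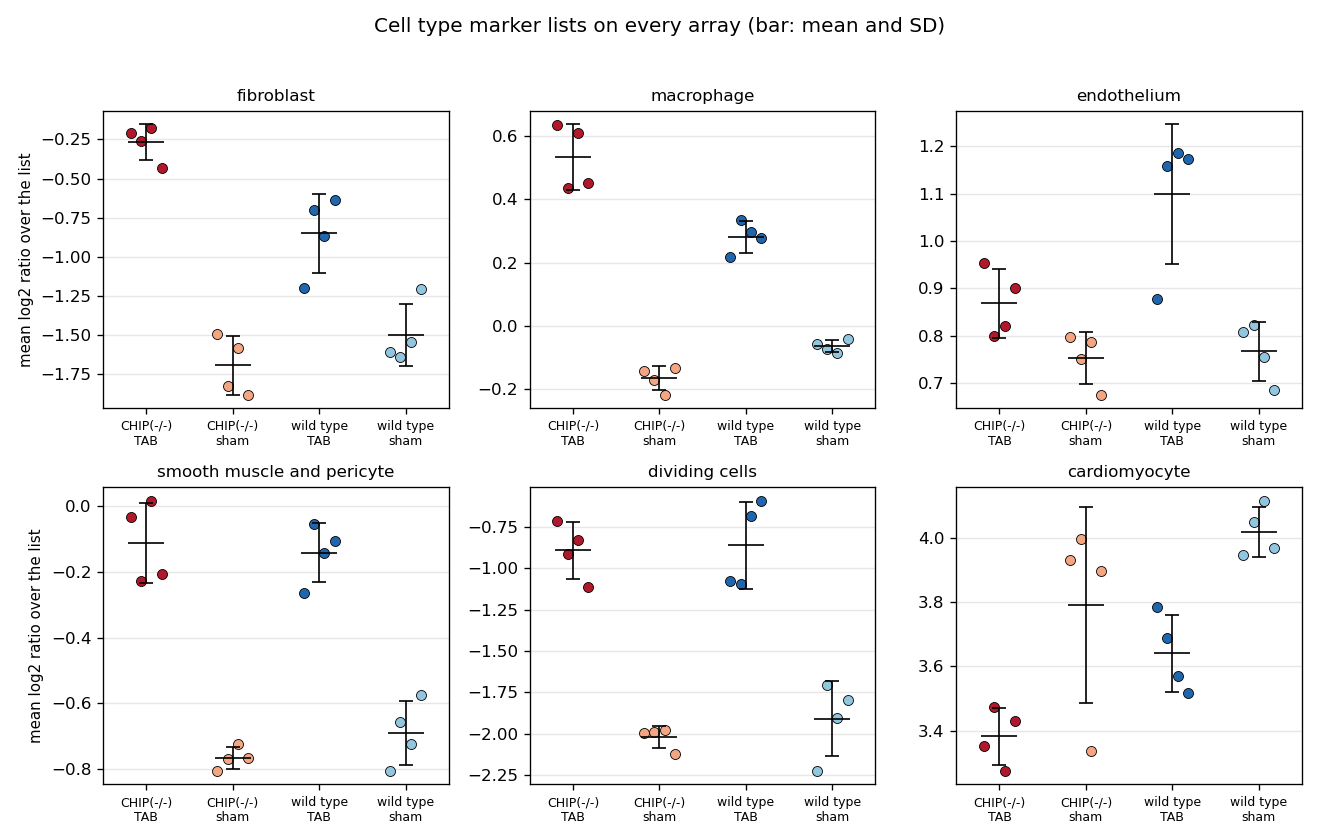
Mean log2 ratio over the measured genes of 6 cell type marker lists (vertical axis) on each of the 16 arrays, with the groups side by side. Points are single arrays, and the bars give the mean and SD of 4 arrays. Fibroblast and macrophage lists are highest in CHIP(-/-) TAB, the list of dividing cells is high in both TAB groups, and the cardiomyocyte list is lower after TAB in wild type without overlap.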

How the data were processed

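RNA of heart ventricles was hybridised on 16 Agilent arrays (pattern 014868), 4 in each of 4 groups, with heart RNA in Cy5 and the reference in Cy3, per the labels. Per the file headers, Feature Extraction 9.1.3.1 gave the deposited linear intensities, both as mean signal with median local background and as processed signals (background method code 7, dye-normalized), and the deposited log10 ratio of the processed signals. The deposited table of the series holds log2 ratios of 14322 probes, centred on each probe's median and matching each array's own log10 ratio with a lowest correlation of 0.9998. The 4 CHIP(-/-) TAB files were saved with fewer significant digits per mean signal and with 47 altered gene names, and names there were looked up by probe in the remaining files.

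For this work, normexp (offset 50) corrected the mean signals, and a loess curve that gave control spots no weight normalized each array. Outlier spots (3 to 459 per array) were left out, and spots of a probe were averaged. A probe was tested if its heart signal was well above background on 4 or more of the 16 arrays and it had a value on 15 or more, which 14684 of 41174 did. Names came from RefSeq through 22951 accessions, 6659 symbols and 3109 synonyms, and 8455 names were kept as given. One linear model with a mean per group was fitted to all 16 arrays with limma 3.58.1 in R 4.3.3 (files read with version 1.17.8 of data.table), using moderated variances that follow intensity. Adjusted p-values are from this limma fit and the Benjamini-Hochberg method, over all tested probes of a comparison. The script was tested on simulated data. The number of arrays limits the precision.

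Every member was named with each probe. From each wider list, genes that passed were named by the size of their difference, up to 4 a list and comparison. For members that differed by at least 1 in CHIP(-/-), the 3 nearest genes were named. Neighbours on the chromosome were also looked up after the values were seen. The members and lists were chosen with earlier results of these data known. The 30 alternatives covered background correction, scaling, filters, probe choice, the variance trend, array weights, blocks and left-out arrays. The block by array position was added after the data were seen.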

Additional observations from a re-analysis of the deposited data

Results flagged for a closer look

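Among 67 groups of 4 arrays, taken over all tested probes of the 9 genes, 2 held an array whose gap to the others was large for the range of its group, and chance alone gives about 1 in 20 such groups. Both were CHIP(-/-) sham replicate 4, an array with Y-linked transcripts. The Tubb2a probe A_51_P490023 had a log2 ratio of -1.78 there, against -2.11, -2.08 and -2.07 on the other CHIP(-/-) sham arrays. The Tuba4a probe A_52_P409498 had 2.19, against 1.36, 1.41 and 1.5.

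The TAB response differed between CHIP(-/-) and wild type by limma's test of the interaction for 4 of the 17 probes, where it did for 4.37% of all probes. These were the Des probe, at 1.15, and the 3 probes of the single gene Lmna, at 0.33, 0.36 and 0.49. The Des call held under all 30 alternatives, and that of the brightest Lmna probe under 11 of 30. With median centring, or without the 3 arrays with Y-linked transcripts, none of the 3 Lmna probes passed.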

How the results depend on the processing

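Of 2490 values under alternatives, most kept their direction and their side of the threshold. The cause of the exceptions was not tested. With median centring, the genes called with TAB in wild type numbered 4 (3 higher, with Tuba4a lower) in place of 7 higher, and differences changed sign for Lmna (-0.106, -0.0981 and -0.0576), Tubb2a (-0.0404) and Tubb5 (-0.0387 and -0.0242) in wild type and for Tubb5 in CHIP(-/-) (-0.0724 and -0.014). A further 38 values changed sign with the call passing in neither setting. The probes called with TAB in wild type numbered 4905, or 3066 without the 3 arrays with high Myl7. After sham, 5 probes were called, against 2 with processed signals, 29 with median centring, 2 with the series table, 8 with no filter, 42 with array weights, 20 without the arrays with high Myl7, 14 without those with Y-linked transcripts, 9 with array position as a block, and 2 to 20 with single arrays left out. After TAB, 1455 were called, against 501 with median centring and 905 to 1589 with single arrays left out, and median centring moved the share of higher calls to 55.7%, against 44.7%. The interaction was called for 2 genes, against 1 with processed signals, median centring, the series table, no filter, no intensity trend, the replicate block or without the arrays with Y-linked transcripts, 4 with array weights, and 1 to 4 with single arrays left out. It was called for 641 probes, against 198 with median centring, 390 with no intensity trend, 110 without the arrays with Y-linked transcripts, and 371 to 875 with single arrays left out.

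The replicate numbers did not pair the arrays: over 24 pairs of same-numbered arrays, deviations from the group means correlated at -0.17 to 0.15, and 4 pairs were over 0.1. With the replicate block the interaction of the brightest Lmna probe was 0.33 with adjusted p = 0.067. Dim probes limit Tubb2b, with 12 of 16 arrays well above background.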
